A study of Arabidopsis thaliana with 6 samples.

Results

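Cytochrome P450 genes were compared between rosette leaves of the ka120 mutant and of the wild type (WT) of Arabidopsis thaliana. Genes were taken as P450s where the array's annotation gave a probe set a single gene symbol that began with CYP, a family number and a subfamily letter, which leaves out the cyclophilins that share the CYP prefix. This rule found 23 genes, each with 1 probe set, among 13356 genes named by a single-gene probe set. The TAIR10.1 gene table holds 236 symbols of this form, so most of the family is not analysed here. Of the 23 genes 19 belong to the CYP71B subfamily, which has 36 symbols in that table. The other 4 are CYP78A9, CYP79A2, CYP84A4 and CYP51G2.

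The mutant group comprised 3 arrays of ka120 plants and the WT group 3 arrays of Col-0 plants, each array hybridized with RNA of a separate biological replicate. KA120 encodes a nuclear transport receptor of the importin-beta family, and no source used here gives the allele. All plants were untreated and grew on soil in 12 h of light and 12 h of darkness at 22 degrees C. The design text gives whole rosettes at 3 weeks, whereas the growth protocol gives 4 weeks and the tissue label gives mature leaf.

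P450s are haem-containing monooxygenases that insert oxygen into small molecules, most of them anchored in the endoplasmic reticulum and fed with electrons from NADPH by a P450 reductase. In plants they act in the synthesis and breakdown of hormones, sterols, pigments, cell wall phenolics and defence compounds. Many Arabidopsis P450 genes, those of CYP71B among them, lie side by side as tandem copies. CYP71B15, also known as PAD3, completes the synthesis of the antimicrobial compound camalexin, while most other CYP71B enzymes have no settled substrate.

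Levels are log2 values per probe set. The median over probe sets was 4.76 in ka120 and 4.64 in WT. The deposited table carries no detection call, so a probe set below these medians is called dim here and was not shown to exceed background. By their group means, 8 of the 23 P450 genes lay above the median in both genotypes, 2 (CYP71B23 and CYP71B36) in ka120 alone, and 13 in neither.

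Arrays of the same genotype correlated across probe sets at r between 0.993 and 0.997, and arrays of different genotypes at r between 0.961 and 0.965. The probe set of KA120 gave 3.98 in ka120 and 4.44 in WT, so ka120 minus WT was -0.45 (SE 0.14, limma adjusted p = 0.0222) at levels that were dim in both. That call was lost without ka120 replicate 1 (-0.29, limma adjusted p = 0.0817), without WT replicate 1 (-0.40, adjusted p = 0.0603) and with arrays centred on hybridization controls (-0.23, adjusted p = 0.216), and the difference was -0.02 with the level-dependent control offset described below. Here and below, a gene counts as measured if the annotation gave it a single-gene probe set. Other genes may be on the array under probe sets that the annotation does not tie to a single gene. Of 12 listed leaf mesophyll markers 4 were measured, and 3 of them fell, where 15.5% of all named genes did. The log2 of their summed level lay between 14.1 and 14.2 on the ka120 arrays and between 14.5 and 14.6 on the WT arrays. The trichome gene TRY (1 measured of 4 listed) fell by 1.07 and the senescence gene SAG29 (1 of 5) by 0.71 on the log2 scale. Both were dim in ka120, at 4.39 and 4.67, so these are differences of signal. The measured markers of guard cells (2 of 5), roots (2 of 5) and flowers or seeds (1 of 6) gave 0 calls. The part of these markers in the differences below was not tested, and in whole-tissue RNA fewer cells of a type and less RNA per cell cannot be told apart. Hybridization controls were also lower in ka120 at low levels, by -0.44 for BioB, -0.26 for BioC and -0.13 for BioD, against 0.02 for the brightest, Cre (ka120 minus WT, log2).

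The first question was which P450 transcripts differ between the mutant and WT. Of the 23 genes 10 passed at an adjusted p under 0.05 (limma, with Benjamini-Hochberg adjustment over 22746 probe sets), and in ka120 6 of these were higher and 4 lower. Among all named genes 32.9% passed, 17.5% higher and 15.5% lower, against 43.5% of the P450 genes. Differences of at least 1 on the log2 scale were found in 2 P450 genes that rose and 1 that fell, where 3.20% and 2.40% of all genes did so. The median difference was -0.004 over the P450 genes and -0.03 over all genes. The median absolute difference was 0.24 over the P450 genes and 0.18 over all genes. In 11 P450 genes the ka120 and WT arrays did not overlap, as was the case in 43.6% of all genes. The 10 called genes are among these 11, and the other is CYP71B29.

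**Figure D1:**
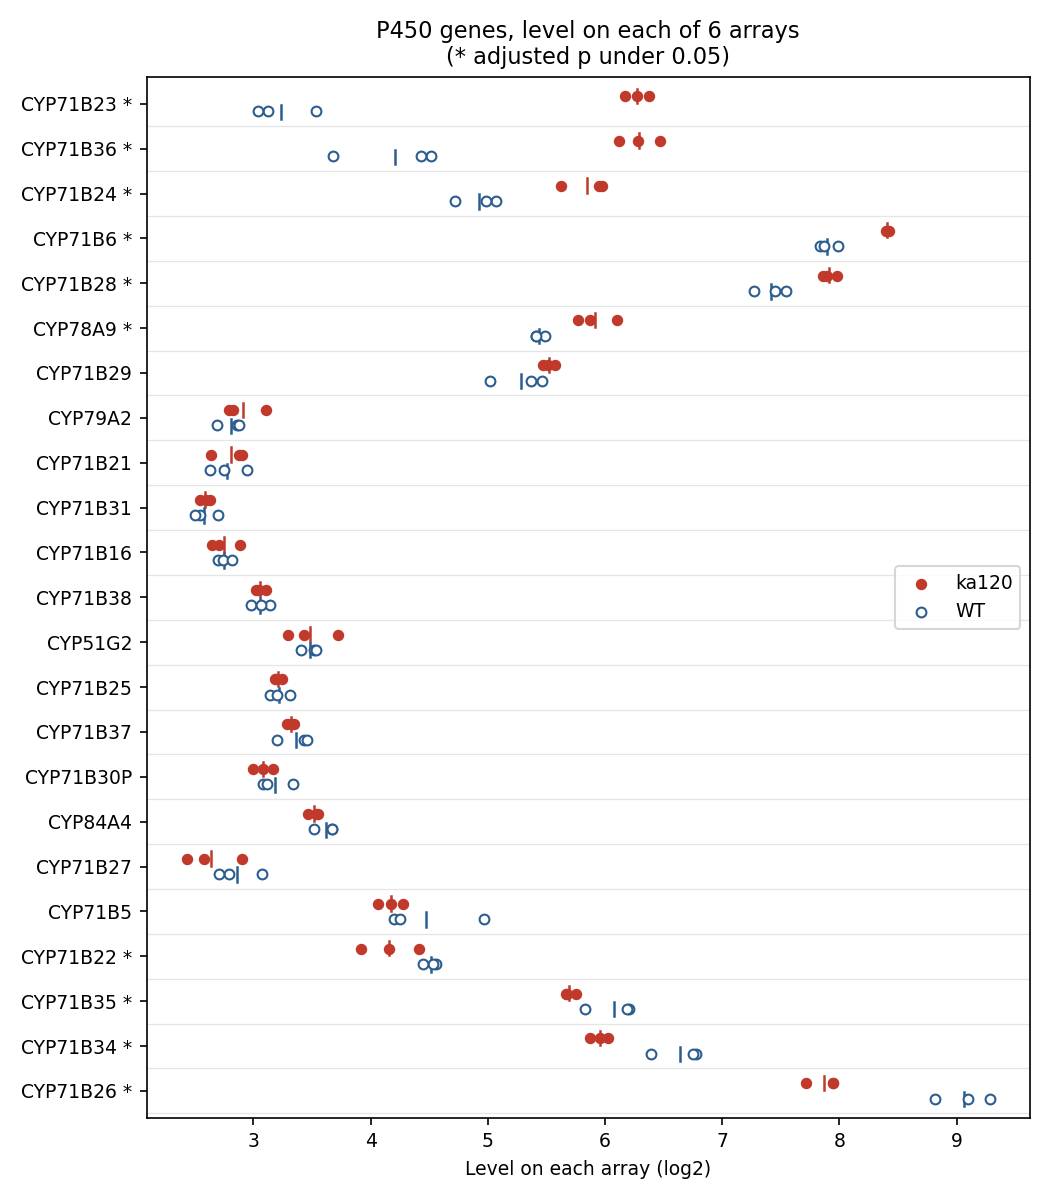
Level of each P450 gene on each array (log2 on the horizontal axis), with 3 ka120 arrays as filled points above 3 WT arrays as open points, vertical ticks at the group means, and an asterisk at genes that passed the test. CYP71B23 and CYP71B36 show the widest gaps, and a block of dim genes between 2.50 and 3.72 shows overlapping groups.

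CYP71B23 (AT3G26210) had the largest difference in signal among the P450 genes. Its level was 6.17, 6.27 and 6.37 on the ka120 arrays, against 3.54, 3.13 and 3.04 on the WT arrays. All ka120 arrays lay far above all WT arrays, and the gap was several times the range within either genotype. The log2 difference was 3.04 (SE 0.13, limma adjusted p = 4.74e-08). The WT level stood at percentile 23.4 of all probe sets and the ka120 level at percentile 69.2. Since the WT level was not shown to exceed background, the value is a difference of measured signals, and neither a fold nor a rank of transcript change is drawn from it.

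CYP71B36 (AT3G26320) followed, with 6.28, 6.12 and 6.47 in ka120 and 3.68, 4.52 and 4.43 in WT. The groups did not overlap, and WT replicate 1 was well below the other WT arrays. The log2 difference was 2.08 (SE 0.19, adjusted p = 1.18e-05, limma). Without WT replicate 1 it was 1.81. The WT level was dim here as well, at percentile 44.4, so this too is a difference of signals and not a measure of transcript change.

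CYP71B24 (AT3G26230) gave 5.97, 5.63 and 5.95 in ka120 and 4.72, 5.07 and 4.98 in WT. Every ka120 array exceeded every WT array, at levels above the median in both genotypes. The log2 difference of 0.92 (SE 0.13, limma adjusted p = 0.00017) corresponds to a 1.90-fold higher signal in ka120.

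CYP71B6 (AT2G24180) encodes an enzyme that converts indole acetonitrile, an intermediate of indole defence metabolism, into indole carbaldehyde and indole carboxylic acid. It was bright in both genotypes, with 8.40, 8.42 and 8.40 in ka120 and 7.84, 7.99 and 7.87 in WT. The ka120 arrays differed from each other by less than those of any other P450 gene (SD 0.013), and all lay above WT. The log2 difference was 0.51 (SE 0.09, adjusted p = 0.000828, limma), a 1.42-fold higher signal.

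CYP71B28 (AT1G13090) gave 7.90, 7.86 and 7.98 in ka120 and 7.27, 7.54 and 7.45 in WT, a log2 difference of 0.49 (SE 0.10; adjusted p = 0.00218, limma). Its neighbour CYP71B29 (AT1G13100) gave 5.58, 5.47 and 5.52 in ka120 and 5.02, 5.37 and 5.46 in WT. Both genes were separated by genotype, but for CYP71B29 the margin was narrow and its difference of 0.24 (95% confidence interval -0.02 to 0.50, limma adjusted p = 0.152) missed the threshold. The difference was 0.11 without WT replicate 1, 0.12 after quantile normalization and 0.11 after median centring. It passed as higher when arrays were centred on the hybridization controls (0.47, adjusted p = 0.00395, limma) and with the level-dependent control offset (0.68). CYP71B27 (AT1G13070), an annotated pseudogene of the same group on chromosome 1, was dim and gave -0.22 (adjusted p = 0.252, limma).

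CYP78A9 (AT3G61880) belongs to a subfamily that promotes organ growth, and its overexpression in Arabidopsis enlarges the fruit. It had 6.10, 5.77 and 5.87 in ka120, against 5.41, 5.48 and 5.41 in WT. No ka120 array reached down to the WT range, and the ka120 arrays were the more scattered. The log2 difference was 0.48 (SE 0.10, limma adjusted p = 0.00365). Among the 4 P450 genes outside CYP71B it was the 1 that passed.

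CYP71B26 (AT3G26290) had the largest fall among the P450 genes. Its level was 7.94, 7.71 and 7.94 in ka120 and 8.81, 9.09 and 9.28 in WT, with all ka120 arrays below all WT arrays. The log2 difference was -1.20 (SE 0.13, limma adjusted p = 2.99e-05), so that WT carried a 2.29-fold higher signal. It ranked 200 among the falls of all genes. The gene was bright in both genotypes, at percentile 88.3 in ka120 and 95.1 in WT.

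CYP71B34 (AT3G26300) gave 5.87, 5.96 and 6.03 in ka120 and 6.40, 6.77 and 6.75 in WT. All ka120 arrays lay below all WT arrays, with WT replicate 1 nearest to them. The log2 difference was -0.69 (SE 0.11, adjusted p = 0.000726, limma). The call was lost when an offset that varied with level in the hybridization controls was removed (-0.25, adjusted p = 0.0935, limma).

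The 2 smallest calls were CYP71B35 (AT3G26310) and CYP71B22 (AT3G26200). CYP71B35 gave 5.66, 5.75 and 5.67 in ka120 and 5.82, 6.21 and 6.19 in WT, a log2 difference of -0.38 (SE 0.11; adjusted p = 0.0225, limma). CYP71B22 gave 4.16, 4.41 and 3.91 in ka120 and 4.55, 4.53 and 4.45 in WT, a log2 difference of -0.35 (SE 0.12; adjusted p = 0.0444, limma). Neither group overlapped the other, but in both genes the nearest ka120 and WT arrays lay close together. CYP71B22 was dim in both genotypes and was the 1 call among the 13 dim genes.

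These 2 falls depended on single arrays and on the scaling. CYP71B35 lost its call without ka120 replicate 1 (-0.36), ka120 replicate 3 (-0.37), WT replicate 2 (-0.31) or WT replicate 3 (-0.32). CYP71B22 lost its call without ka120 replicate 1 (-0.35), ka120 replicate 3 (-0.23), WT replicate 1 (-0.33), WT replicate 2 (-0.34) or WT replicate 3 (-0.38). Centring on the hybridization controls also ended both calls, at -0.15 for CYP71B35 and -0.12 for CYP71B22, and removing the level-dependent control offset turned their direction, to 0.060 and 0.087.

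**Figure D2:**
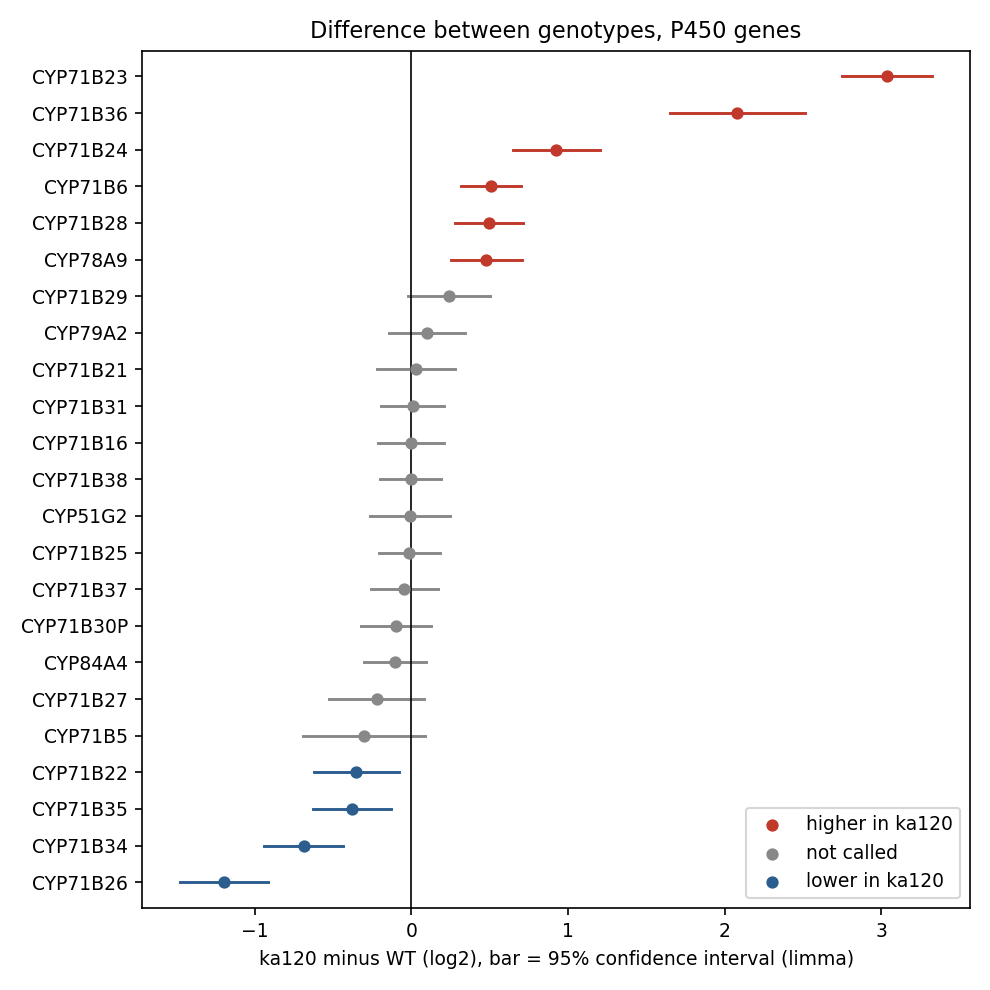
Difference between ka120 and WT for each P450 gene (log2, ka120 minus WT, on the horizontal axis), with bars for 95% confidence intervals from limma and colours for genes higher, not called or lower. The differences run from 3.04 for CYP71B23 to -1.20 for CYP71B26, and 13 genes have intervals that include 0.

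The remaining 12 genes were dim in both genotypes and did not pass. Of these, 10 gave differences between -0.10 and 0.10, with 95% confidence intervals inside -0.32 to 0.34. Their single-array levels lay between 2.54 and 3.72 in ka120 and between 2.50 and 3.67 in WT. They include 4 genes whose function or relatives are known. CYP79A2 (AT5G05260), which makes the phenylalanine-derived oxime of benzylglucosinolate, differed by 0.10 (95% confidence interval -0.15 to 0.34). CYP84A4 (AT5G04330), an enzyme of arabidopyrone synthesis and a relative of ferulate hydroxylase, differed by -0.10 (interval -0.30 to 0.10).

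CYP71B31 (AT3G53300), which oxidizes the monoterpene alcohol linalool in flowers, differed by 0.01 (interval -0.19 to 0.21). CYP51G2 (AT2G17330), a relative of the sterol demethylase CYP51G1 and annotated as a transcribed pseudogene, differed by -0.006 (interval -0.26 to 0.25). The others of these 10 were CYP71B16, CYP71B21, CYP71B25, CYP71B30P, CYP71B37 and CYP71B38. At levels not shown to exceed background, such values do not show that transcript amounts were alike.

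Among the dim genes CYP71B5 (AT3G53280) varied most between WT arrays. It gave 4.18, 4.07 and 4.27 in ka120 and 4.198, 4.97 and 4.25 in WT. WT replicate 2 stood above all other arrays, and the difference without it was -0.05. The log2 difference of -0.30 (95% confidence interval -0.69 to 0.09) had the widest interval among the genes that did not pass (limma adjusted p = 0.227).

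At 2 places of a tandem run, genes with calls in opposite directions were direct neighbours, CYP71B22 beside CYP71B23 and CYP71B35 beside CYP71B36. The falling gene of each pair, CYP71B22 (dim in both genotypes) and CYP71B35, had a call that depended on single arrays and on the scaling. With the level-dependent control offset neither of them was lower. The run lies on chromosome 3, where from CYP71B16 (AT3G26150) to CYP71B37 (AT3G26330), the TAIR10.1 table lists 25 genes, of which 18 are CYP71B genes and 11 of these were measured. In this run 3 genes rose (CYP71B23, CYP71B24 and CYP71B36) and 4 fell (CYP71B22, CYP71B26, CYP71B34 and CYP71B35). The other 4 did not pass. Of the 12 P450 genes elsewhere, 3 rose and 0 fell. Over all named genes 17.5% rose and 15.5% fell, and neither place was tested against that share. In gene order the measured genes gave -0.002 (CYP71B16), 0.03 (CYP71B21), -0.35 (CYP71B22), 3.04 (CYP71B23), 0.92 (CYP71B24), -0.01 (CYP71B25), -1.20 (CYP71B26), -0.69 (CYP71B34), -0.38 (CYP71B35), 2.08 (CYP71B36) and -0.04 (CYP71B37) on the log2 scale. The high differences were thus split between 2 places of the run, with the falling CYP71B26, CYP71B34 and CYP71B35 between them.

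**Figure D3:**
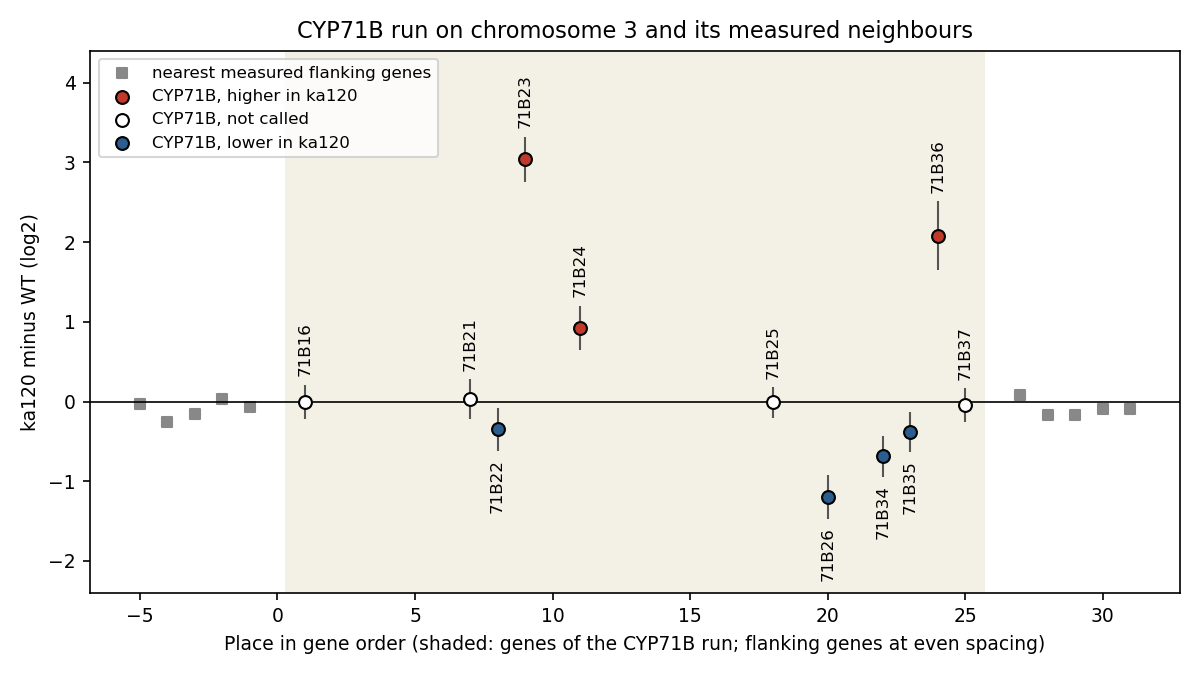
Difference between ka120 and WT (log2, vertical axis) by place in gene order for the 11 measured CYP71B genes of the run on chromosome 3 (shaded, with 95% confidence intervals) and for 5 measured genes on each side (squares). CYP71B36 at 2.08 stands directly beside CYP71B35 at -0.38 and CYP71B37 at -0.04, while the flanking genes stay between -0.26 and 0.09. Some of the flanking genes were dim.

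The 5 nearest measured genes on each side of the run, none of them with a P450 symbol, gave differences between -0.26 and 0.09. Of these 10 genes 0 passed in limma (lowest adjusted p = 0.103), where 32.9% of all named genes did. An unadjusted p under 0.05 was found in 1, AT3G26100. By their mean over all arrays, 5 of the 10 lay above the median level. The others were dim, and their values do not show that transcript amounts were alike. The difference between the run and its flanks was not tested.

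Neighbours within the run, chosen after their values were known, were set side by side, as the genotype difference of 1 gene minus that of the next measured CYP71B gene on the same arrays. A shift of a whole array cancels in this measure. The SEs of these contrasts come from the spread between the 3 arrays of each genotype alone. They are not limma's and are not to be compared with the SEs given above. CYP71B36 exceeded its neighbour CYP71B35 by 2.46 (SE 0.19), and CYP71B37 lay below CYP71B36, at -2.12 (SE 0.21). CYP71B23 exceeded CYP71B22 by 3.39 (SE 0.22) and CYP71B24 by 2.11 (SE 0.28). Within the falling stretch the gaps were smaller, at 0.51 (SE 0.11) for CYP71B34 minus CYP71B26 and 0.31 (SE 0.05) for CYP71B35 minus CYP71B34.

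In each of these 6 pairs the ka120 and WT values did not overlap, and the exact permutation test (two-sided, 20 splits) gave p = 0.1, also p = 0.1 after Benjamini-Hochberg adjustment over the 6 pairs. With 3 against 3 arrays 0.1 is the smallest p this test can give. These contrasts therefore describe the chosen pairs. Those of CYP71B23 and CYP71B36 are differences of signal, since both were dim in WT, and CYP71B22 and CYP71B37 were dim in both genotypes. Tandem copies are similar in sequence, and whether a probe set also binds transcripts of a neighbour was not tested. All 23 probe sets carry the plain suffix _at, not _s_at or _x_at, which mark probes shared between transcripts.

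A further group on chromosome 3, at AT3G53280 to AT3G53300, held CYP71B5, CYP71B30P and CYP71B31, and none of the 3 passed in limma (differences -0.30, -0.10 and 0.01, adjusted p between 0.227 and 0.951, 0 with an unadjusted p under 0.05). CYP71B38 (AT3G44250), the remaining CYP71B gene of that chromosome, gave -0.004.

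The scaling of the arrays set the level of all differences. Over all named genes the median difference was -0.03 as deposited, -0.02 after quantile normalization, -0.15 with array medians set equal, 0.20 with hybridization controls set equal and 0.40 once the level-dependent control offset was removed. CYP71B23, CYP71B36, CYP71B24, CYP71B6, CYP71B28 and CYP78A9 were higher and passed under each of these. For CYP71B23 the difference ranged from 2.91 to 3.47, for CYP71B36 from 1.96 to 2.52 and for CYP71B24 from 0.80 to 1.36. CYP71B26 was lower and passed under each, from -1.32 to -0.86. The split of calls was 6 higher and 4 lower as deposited, 8 and 2 on the hybridization controls and 17 and 1 with the level-dependent offset. Calls over all named genes moved the same way. They were higher in 53.0% of calls as deposited, in 80.6% on the hybridization controls and in 92.6% with the level-dependent offset, where 74.4% of all genes passed.

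**Figure D4:**
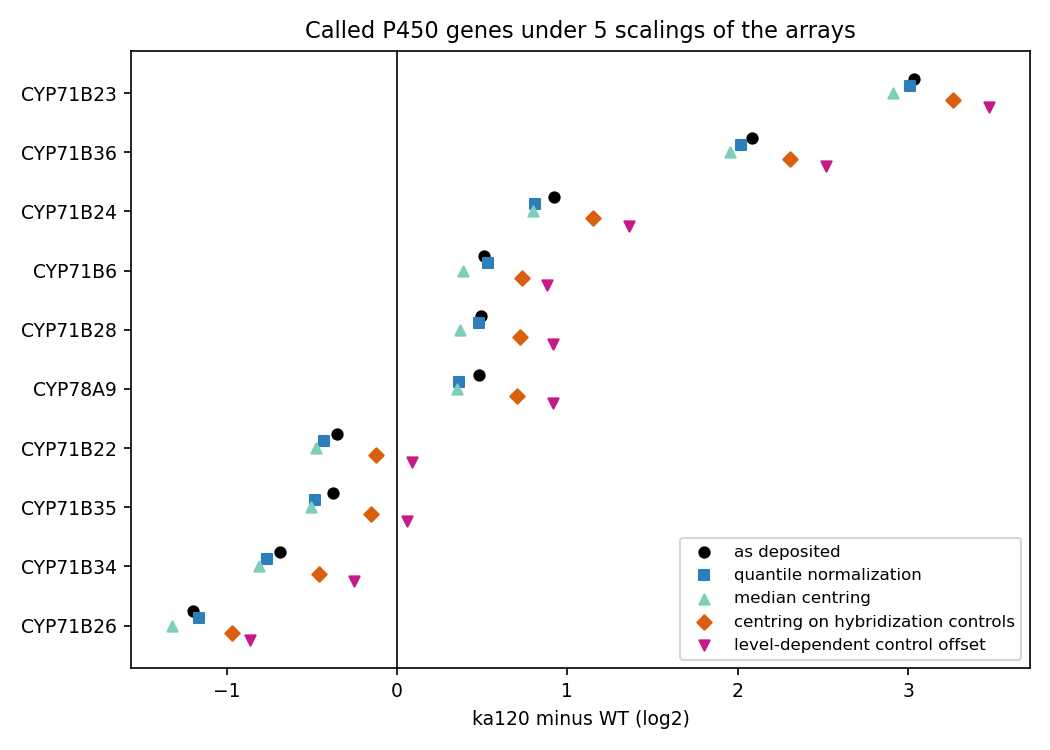
Differences of the 10 called P450 genes (log2, ka120 minus WT, horizontal axis) under 5 scalings of the arrays, with a symbol for each scaling. The 6 rising genes and CYP71B26 and CYP71B34 keep their sign under all 5, while CYP71B22 and CYP71B35 cross 0 with the level-dependent control offset.

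P450 enzymes work together with reductases and with other enzymes of their pathways. Of 132 such genes listed in 11 groups 10 had a single-gene probe set, in 6 groups. Of these 10 genes 7 rose and 2 fell, beside the 17.5% and 15.5% of all genes that did so. ATR3 (AT3G02280), a diflavin reductase, was the 1 measured gene of 11 listed as P450 redox partners. Whether it passes electrons to P450s was not tested. ATR3 gave 5.03, 5.07 and 4.96 in ka120 and 4.49, 4.79 and 4.68 in WT. It rose by 0.36 (SE 0.10, limma adjusted p = 0.0144), a call lost after median centring (0.24) and quantile normalization (0.25) and without ka120 replicate 1 (0.36). The reductases ATR1 and ATR2 and the cytochrome b5 genes are not analysed here.

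Of 22 listed genes of glucosinolate synthesis 3 were measured and all 3 rose. CYP79A2, which acts in the phenylalanine-derived branch of this pathway, was dim and did not pass (0.10). BCAT4, which opens the chain elongation of methionine, rose by 1.35 on the log2 scale. UGT74B1 (AT1G24100), the glucosyltransferase of the core pathway, gave 8.75, 8.59 and 8.78 in ka120 and 8.12, 8.04 and 8.20 in WT, a log2 difference of 0.59 (SE 0.09; adjusted p = 0.000544, limma). GSTU20 (AT1G78370), a glutathione transferase, rose by 0.35 (adjusted p = 0.0303, limma), a call lost after median centring (0.22) and without ka120 replicate 1 (0.36), ka120 replicate 3 (0.28), WT replicate 1 (0.30) or WT replicate 2 (0.30).

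Of 20 listed genes of phenylpropanoid and flavonoid synthesis 3 were measured. HCT (AT5G48930), which supplies the substrate of the phenolic ring hydroxylase CYP98A3, gave 8.81, 8.57 and 8.71 in ka120 and 9.63, 9.48 and 9.37 in WT. All ka120 arrays lay below WT, and the log2 difference was -0.80 (SE 0.10, limma adjusted p = 0.000127). CCR2 (AT1G80820), a cinnamoyl-CoA reductase, was dim and rose by 0.43 (limma adjusted p = 0.00444). DFR, an anthocyanin enzyme, rose by 1.26, with WT arrays between 5.30 and 6.83, and lost its call under a robust prior with an intensity trend (0.0525 as limma's adjusted p).

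In the hormone groups the gibberellin receptor GID1A (AT3G05120) gave 4.74, 4.79 and 4.80 in ka120 and 3.88, 4.06 and 4.15 in WT, a log2 difference of 0.75 (SE 0.10; adjusted p = 0.000126, limma). Its WT level was dim, at percentile 41.8, and its ka120 level stood at percentile 50.2, so this is a difference of signal. JMT, which methylates jasmonic acid, fell by 0.46 and was dim. The call was lost under both control-based scalings (-0.23 and -0.02). LCYB, the lycopene cyclase that precedes the carotenoid hydroxylases of the CYP97 family, gave 8.70 in ka120 and 8.73 in WT (difference -0.03, 95% confidence interval -0.25 to 0.18) and did not pass. The listed genes of brassinosteroid, abscisic acid, cutin, sterol and camalexin synthesis are not analysed here.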

How the data were processed

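Transcripts of 3 ka120 and 3 WT samples were measured on 1 biotin-labelled expression array each. Each deposited value is a log2 level, 1 for each probe set, judging by a range of 2.16 to 13.7. Per the submitters' processing notes the authors used the package affy, and no source used here gives its version, background correction or normalization. The table has 22810 probe sets, and tests left out 64 array controls. The platform annotation named a single gene for 13513 probe sets (13436 matched TAIR10.1 by gene identifier), several genes for 503 and none for 8730. The brightest probe set stood for a gene.

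Differences were fitted with limma 3.58.1 (R 4.3.3), using lmFit and eBayes without a block or filter, with Benjamini-Hochberg adjustment over all 22746 probe sets and a threshold of 0.05. The fit was tested on simulated data. The number of arrays limits the precision, and whether replicates came from separate plantings is not given. All 23 members are named: up to 12 rises and 12 falls among called genes with separated arrays, members with a listed role, and relatives of these. The members, gene lists and rules were chosen with earlier results of these data known. Alternatives were other normalizations and centrings, a filter on dim probe sets, other variance models, array weights, a replicate block, other choices of probe set and each array left out; the level-dependent offset was chosen after the data had been seen.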

Additional observations from a re-analysis of the deposited data

How the results depend on the processing

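The 6 rising genes and CYP71B26 passed in the same direction under all 16 alternatives, and CYP71B34 under all but the level-dependent control offset. The number of P450 genes called higher was 6, and 6 with each array left out, 8 when centred on hybridization controls and 17 under the level-dependent offset. The number called lower was 4, between 2 and 4 over the fits that omit an array (2 for ka120 replicate 1, ka120 replicate 3, WT replicate 2 or WT replicate 3), 3 with an intensity trend and robust prior (CYP71B22 lost, adjusted p = 0.0582, limma), 2 under control centring and 1 under the level-dependent offset. All named genes called numbered 4395, between 3596 and 4255 with each array left out, and 9941 with the level-dependent offset. Pathway genes called higher numbered 7, between 5 and 7 with each array left out, and those called lower 2, also with each array left out, and 1 under control centring, under the level-dependent offset and without the dimmest 40% of probe sets, a filter that removes JMT.

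The level-dependent offset, chosen after the data had been seen, adds about 0.4 by construction to genes below the level of BioB, the lowest control. BioB lay at 7.28 in ka120 and 7.72 in WT, so genes that were not dim are shifted too. CYP71B24, for example, gave 0.92 as deposited and 1.36 with the offset. The offset turned the sign of CYP71B22 (0.087) and CYP71B35 (0.060). It made CYP71B16 (0.44), CYP71B38 (0.43), CYP51G2 (0.43), CYP71B25 (0.43), CYP71B37 (0.39), CYP71B30P (0.34) and CYP84A4 (0.34), all slightly negative as deposited, called higher. Limma's prior degrees of freedom were 15.8 under control centring and 41.8 under the offset, against 6.65 as deposited, and the cause was not tested.

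After group means were removed, arrays that share a number correlated at -0.01, -0.19 and 0.13, so the numbers were not taken to pair the samples. With a replicate block 6 P450 genes were called higher, 4 lower and 4221 named genes in all, with 7 pathway genes higher and 2 lower. Dim levels limit what can be said of 13 P450 genes, since background was not measured.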

Other observations

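WT replicate 1 had the lowest of the 3 WT values in all 8 P450 genes that lay above the median in both genotypes, in rising and falling genes alike. Among the 5623 named genes above the median in both genotypes it was lowest in 41.4%, WT replicate 3 in 36.7% and WT replicate 2 in 21.8%. This was noticed after the values were seen and was not tested.

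CYP718 (AT2G42850), a P450 whose symbol has no subfamily letter and which the naming rule therefore left out, was dim and gave -0.17 (ka120 minus WT, log2, limma adjusted p = 0.405).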
